A study of Mus musculus with 9 samples.

Results

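Mycn and its protein network were followed through 3 mouse fibroblast lines. The network genes were Mycn, Myc, Max, Mxi1, Mxd4 and Mnt, and every probe set that the platform annotation gives to exactly 1 of these 6 genes was kept. That left 13 probe sets of the 22690 on each array, or 6 of the 12393 genes with a probe set of their own. Mycn had 3 probe sets, Mxd4 4, Mxi1 and Mnt 2 each, and Myc and Max 1 each. The topic was picked because the brightest Mycn probe set stood far apart between the lines, so the Mycn values are given as a description, with no test. The other 5 genes were taken for their place in the network, and their differences were tested in the fit over all probe sets.

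The arrays came from NIH 3T3, an established mouse embryo fibroblast line, labelled wild type; from SV5, a stable NIH 3T3 clone with the SV40 large T antigen; and from SV5 NN4, a stable clone with both SV40 large T antigen and wild-type Nras. Each line had 3 arrays, 9 in all, and the cells grew in medium with calf serum. Each derived line is 1 clone, so a difference between lines cannot be told apart from a difference between clones. The labels do not say whether the 3 arrays of a line came from separate cultures, so the spread between arrays may be technical. The standard errors (SE) and intervals come from a fit that first takes out the replicate number and shares 1 spread over the lines. They therefore leave out what arrays of equal number have in common, and can be far smaller than the spread between the arrays of a line.

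Myc proteins are transcription factors that bind DNA as a pair with Max, at a short palindromic site called the E-box, and drive genes of growth, ribosome building and metabolism. The Mxd proteins, Mxi1 and Mnt pair with Max as well and repress from the same sites, so the makeup of the Max pairs is held to set the output. Myc is the member most dividing cells use, while Mycn is best known from embryonic and neural tissue and from neuroblastoma. T antigen binds the retinoblastoma family, which otherwise holds back the E2F transcription factors, and E2F factors are known regulators of Mycn.

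The sequence before the Mycn start site is shown because that probe set carries the largest difference here. It is the stretch of 250 bases just upstream, from RefSeq on the mouse assembly GRCm38.p6, at chr12:12941837-12942086 on the minus strand. Capitals mark matches to TTTGGCGC or TTTCGCGC on either strand, which are letters of the E2F motif and were chosen after this sequence had been read.
Mycn: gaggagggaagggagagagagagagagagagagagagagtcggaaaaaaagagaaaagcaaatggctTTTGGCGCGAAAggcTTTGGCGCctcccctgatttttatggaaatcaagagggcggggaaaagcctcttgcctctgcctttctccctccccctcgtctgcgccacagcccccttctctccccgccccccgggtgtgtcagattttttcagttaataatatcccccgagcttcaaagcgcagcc
There were 3 matches, whose first bases lay 183, 179 and 168 bases before the start, and the first of these overlapped the next by 4 bases. Of 32851 promoters in the table, 215 held such a match in the same window, or 0.654%. Since the letters were chosen with the Mycn sequence in view, its matches were fixed in advance, and this share is only a description. A match describes letters only, and no factor's binding was measured.

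The E-box letters CACGTG were searched in the same way in the promoters of the network genes, of which 5 had an entry: Mycn, Max, Mxi1, Mxd4 and Mnt. Mxd4 and Mnt each held 1 match, while the windows of Mycn, Max and Mxi1 (3 promoters) had none of these letters. The 30 bases around each match are shown, with the E-box in capitals, because both genes encode repressors that act at this site. The first lies at chr5:34187912-34187941 on the minus strand, 219 bases before the start, and the second at chr11:74830789-74830818 on the plus strand, 123 bases before the start.
Mxd4: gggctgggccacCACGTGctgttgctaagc
Mnt: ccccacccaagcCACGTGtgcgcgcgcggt
Over all promoters in the table, 1978 of 32851 held CACGTG in this window, or 6.02%.

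The values are intensities on a linear scale, used as log2(intensity + 1). Array medians lay between 56.2 and 62.4, and 9 control probe sets for bacterial transcripts read 3.18 to 4.25 on the log2 scale, which marks the floor. The labelled cell type was checked against its markers. All 9 fibroblast markers were measured, with line means of 8.17 to 12.99, and their summed intensity was 25939 to 51173 in NIH 3T3, 38465 to 58879 in SV5 and 23797 to 37759 in SV5 NN4. Most markers of other cells were dim, with exceptions. Over the 9 arrays the summed intensity of 6 epithelial markers was 126 to 198, of 5 blood cell markers 196 to 361, of 5 endothelial markers 83 to 158 and of 5 neural markers 612 to 972. Most of the neural sum was Ncam1, a cell adhesion molecule, which read 9.03 to 9.71 on the log2 scale (intensities of 522 to 838) on all arrays. Cd3e, a T cell receptor subunit, read 6.13 to 7.11, also above the median of all values, 5.9. The blood cell markers Lyz2 and Cd52 and the neural marker Gfap lay near this median, with line means of 5.79 to 6.22. The means of Lyz2 and Gfap were above it in every line, and those of Cd52 in NIH 3T3 and SV5. None of these genes was called in limma in any comparison, and 1 epithelial, 3 endothelial and 1 neural marker stayed at or below the bacterial controls on all arrays.

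Mycn encodes N-Myc. Its brightest probe set, 1425923_at, read 6.27, 7.04 and 6.12 in NIH 3T3 replicates 1 to 3 on the log2 scale, or intensities of 76.3, 131 and 68.7. In SV5 it read 11.82, 11.09 and 12.57, or intensities of 3614, 2184 and 6094. In SV5 NN4 it read 12.84, 12.21 and 13.23, or intensities of 7322, 4743 and 9602. All 3 NIH 3T3 arrays lay far below all 6 arrays of the T antigen clones, and also above the bacterial controls. SV5 and SV5 NN4 overlapped, since the highest SV5 array was above the lowest SV5 NN4 array.

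With equal replicate numbers paired, SV5 was above NIH 3T3 by 5.55, 4.05 and 6.45, a mean of 5.35 ± 1.21 (SD, n = 3 pairs) or 40.8-fold. SV5 NN4 was above NIH 3T3 by 6.56, 5.17 and 7.11, a mean of 6.28 ± 1 or 77.8-fold. This was the highest difference of all 22690 probe sets in both comparisons. SV5 NN4 was above SV5 by 1.02, 1.12 and 0.66, a mean of 0.93 ± 0.24 or 1.91-fold, which ranked 265 from the highest there. The order of the levels was thus NIH 3T3, SV5, SV5 NN4 in each of the 3 replicate numbers. The comparisons with NIH 3T3 share its arrays, and those with SV5 share the SV5 arrays, so they are not separate evidence.

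**Figure D1:**
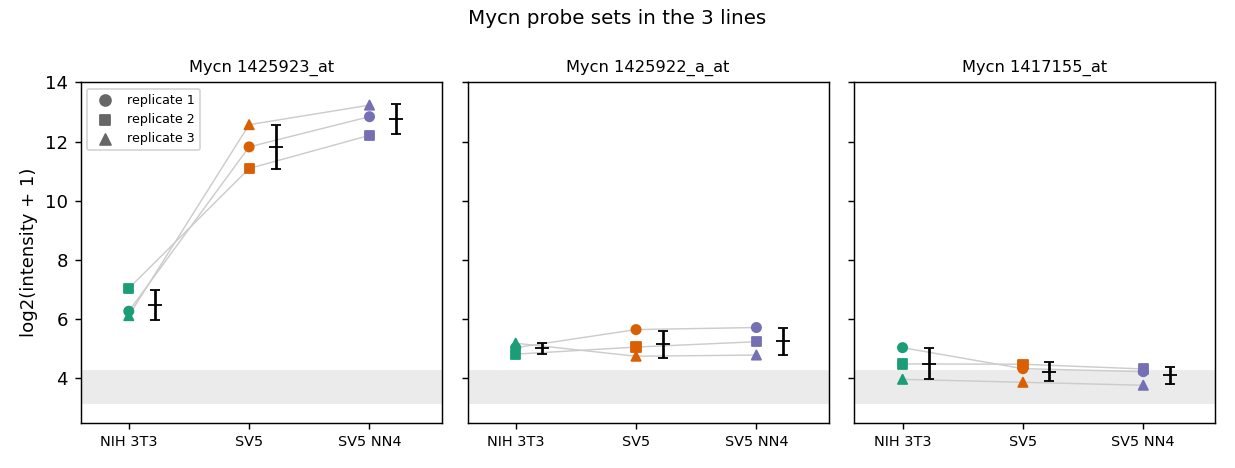
Levels of the 3 Mycn probe sets, log2(intensity + 1) on the vertical axis, for NIH 3T3, SV5 and SV5 NN4, with a symbol per replicate number joined by grey lines, the mean and SD (n = 3) in black beside them, and the range of the bacterial controls (3.18 to 4.25) shaded. At 1425923_at the line means step from 6.48 to 11.83 and 12.76, while the other 2 probe sets stay between 3.77 and 5.72 on every array.

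The other Mycn probe sets showed no such step. Probe set 1425922_a_at read 5.04, 4.82 and 5.19 in NIH 3T3, 5.65, 5.06 and 4.75 in SV5, and 5.72, 5.24 and 4.79 in SV5 NN4. Its line differences were 0.14 ± 0.54 for SV5 against NIH 3T3 and 0.1 ± 0.07 for SV5 NN4 against SV5 (SD over pairs, n = 3), and the lines overlapped. Probe set 1417155_at read 5.04, 4.49 and 3.97 in NIH 3T3, 4.33, 4.48 and 3.87 in SV5, and 4.23, 4.32 and 3.77 in SV5 NN4. Only 5 of its 9 values exceeded the highest bacterial control. The high Mycn reading of the T antigen clones therefore rests on 1 of 3 probe sets, and which part of the transcript each covers was not examined here.

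The ratio of 3′ to 5′ signal is a measure of RNA integrity. Its log2 value was 2.42 to 5.06 for Actb and 2.36 to 5.21 for Gapdh, so the 3′ end read far higher on every array. Between SV5 and NIH 3T3 the ratio differed in the same direction in every pair for Actb but not for Gapdh. For Actb it was, on the log2 scale, 4.25, 4.43 and 5.06 in NIH 3T3 and 3.73, 4.32 and 2.42 in SV5, lower in SV5 in every pair. In SV5 NN4 it was 4.07, 4.63 and 3.66, above SV5 in every pair. For Gapdh the same ratio was 2.65, 2.99 and 5.21 in NIH 3T3, 2.45, 3.03 and 2.36 in SV5, and 2.66, 3.52 and 3.05 in SV5 NN4. SV5 was not below NIH 3T3 in every Gapdh pair, and NIH 3T3 replicate 3 stood highest. SV5 NN4 was above SV5 in every Gapdh pair, as it was for Actb. The part of RNA integrity in the readings of single probe sets was not tested.

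Myc encodes c-Myc, the family member found in most growing cells. Its probe set read 7.63, 6.17 and 6.34 in NIH 3T3, 6.65, 6.52 and 7.62 in SV5, and 6.7, 6.32 and 7.28 in SV5 NN4. The lines overlapped, and the pairs disagreed in sign, with SV5 minus NIH 3T3 at -0.98, 0.35 and 1.27. The mean difference was 0.21 (SE 0.38, 95% interval -0.69 to 1.11, adjusted p = 0.84 in limma) for SV5 against NIH 3T3 and -0.16 (interval -1.06 to 0.74, adjusted p = 0.96) for SV5 NN4 against SV5. At this spread a doubling of Myc in SV5 lies within the interval.

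Max encodes the shared partner of all these proteins. It was dim, at 5.37, 5.61 and 4.46 in NIH 3T3, 4.75, 4.82 and 4.56 in SV5, and 4.56, 5.21 and 5.05 in SV5 NN4. The lines overlapped. SV5 differed from NIH 3T3 by -0.44 (SE 0.26, interval -1.04 to 0.16, adjusted p = 0.48) and SV5 NN4 from SV5 by 0.23 (interval -0.37 to 0.83, adjusted p = 0.87).

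Mxi1 encodes a Max-binding repressor. Its brighter probe set, 1450376_at, read 8.35, 8.06 and 8.36 in NIH 3T3, 8.8, 8.61 and 9.38 in SV5, and 8.73, 8.23 and 8.71 in SV5 NN4. All 3 SV5 arrays were above all 3 NIH 3T3 arrays, which 2.16% of all probe sets showed in that direction. The difference was 0.67 (SE 0.15, interval 0.31 to 1.03), with 3 of 3 pairs above 0, as in 12.9% of all probe sets, but it did not pass the test over all probe sets (adjusted p = 0.15). SV5 NN4 lay between the other lines, 0.37 below SV5 (a difference of -0.37, adjusted p = 0.36) and 0.3 above NIH 3T3 (adjusted p = 0.38). The dimmer probe set, 1425732_a_at, had line means of 5.07, 5.23 and 5.21 and differences of 0.16 and -0.03 in the first 2 comparisons.

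Mxd4 encodes a repressor of the Mxd family that is linked to cells leaving the cycle. At 1434378_a_at it read 6.5, 9.58 and 9.11 in NIH 3T3, 8.6, 9.47 and 8.01 in SV5, and 6.89, 8.58 and 7.71 in SV5 NN4. The NIH 3T3 arrays spread over 3 log2 units, with replicate 1 alone low, so that SV5 minus NIH 3T3 gave 2.1, -0.11 and -1.1 in the pairs. SV5 NN4 minus SV5 was below 0 in all 3 pairs, at -1.7, -0.89 and -0.3, with a mean of -0.97 (SE 0.51, interval -2.16 to 0.23, adjusted p = 0.53).

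At 1434379_at, Mxd4 read 6.44, 7 and 6.48 in SV5 and 5.33, 6.24 and 6.37 in SV5 NN4, so these lines did not overlap, as 3.72% of all probe sets showed in that direction. The difference was -0.66 (SE 0.22, interval -1.18 to -0.14, adjusted p = 0.25). The remaining probe sets, 1422574_at and 1422575_at, differed by -0.5 (adjusted p = 0.44) and -0.16 (adjusted p = 0.79). All 4 Mxd4 probe sets were thus lower in SV5 NN4 than in SV5 in 3 of 3 pairs, but none passed the test, and they measure 1 gene on the same arrays.

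Mnt encodes a widely expressed antagonist of Myc. Its brighter probe set, 1418192_at, read 7.35, 7.95 and 8.49 in NIH 3T3, 7.36, 8.23 and 7.84 in SV5, and 7.21, 7.75 and 7.56 in SV5 NN4. SV5 NN4 minus SV5 was -0.15, -0.48 and -0.28 in the pairs, a mean of -0.3 (SE 0.2, interval -0.77 to 0.16, adjusted p = 0.66). SV5 differed from NIH 3T3 by -0.12 (adjusted p = 0.82). The dimmer probe set, 1418193_at, lay at 4.09 to 4.55, within or just above the bacterial controls, and differed by -0.03 and -0.16 in the same comparisons.

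**Figure D2:**
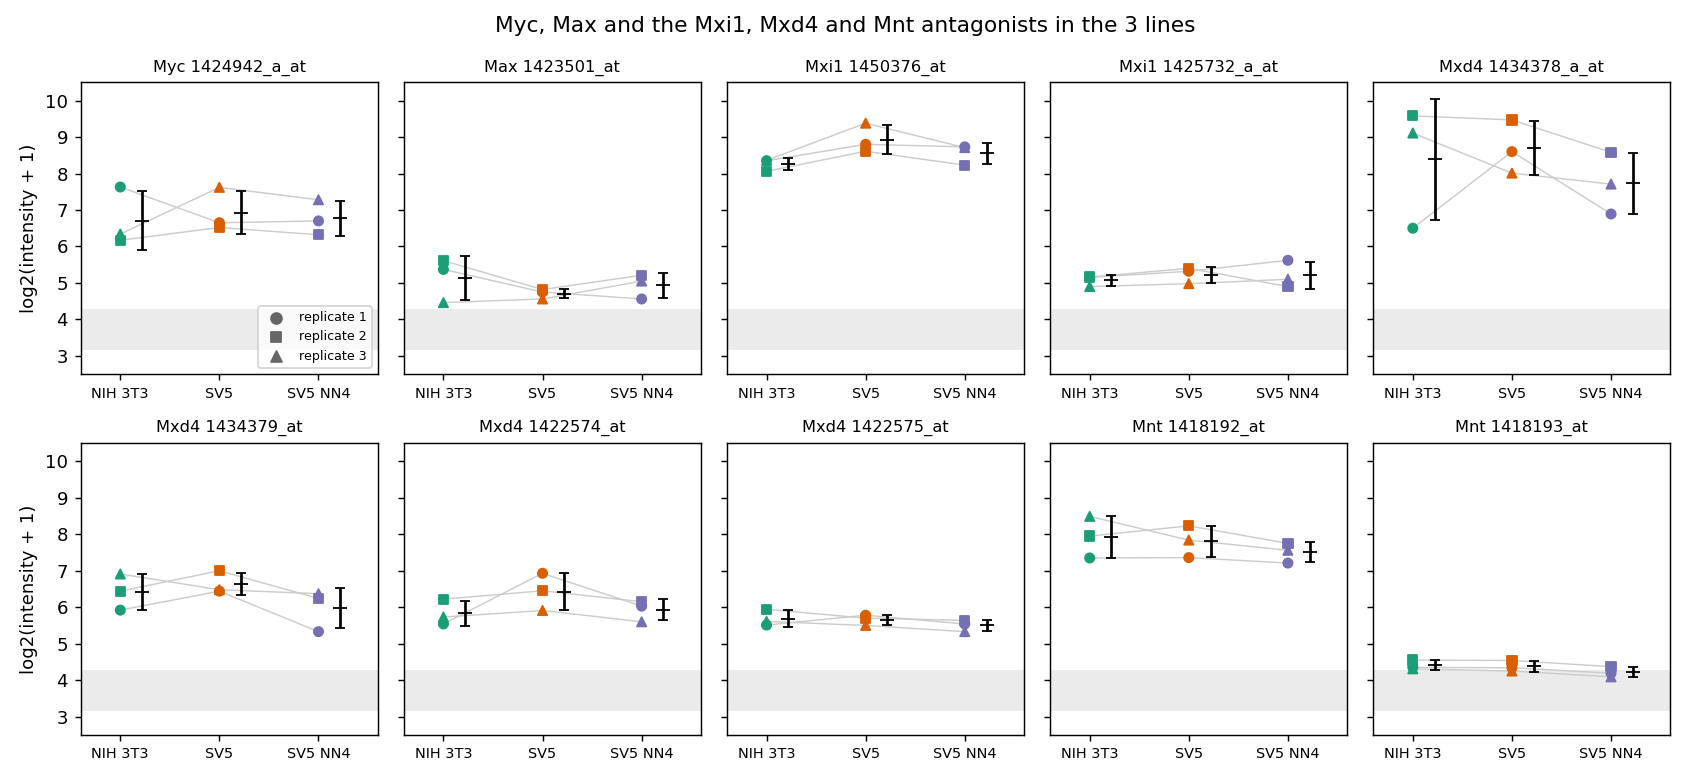
Levels of the 10 probe sets of Myc, Max, Mxi1, Mxd4 and Mnt, log2(intensity + 1) on the vertical axis, for NIH 3T3, SV5 and SV5 NN4, with a symbol per replicate number joined by grey lines, the mean and SD (n = 3) in black, and the bacterial controls shaded. In the SV5 to NIH 3T3 comparison 1 probe set, Mxi1 1450376_at, had lines that did not overlap, and in the SV5 NN4 to SV5 comparison 1 did, Mxd4 1434379_at.

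Counted together, limma called 0 of the 10 probe sets of these 5 genes in SV5 against NIH 3T3 at an adjusted p under 0.05, where 0.0617% of all probe sets were called. Between SV5 NN4 and SV5 0 were called, against 0.864% of all probe sets, and between SV5 NN4 and NIH 3T3 0, against 1.65%. Without adjustment, 2, 2 and 0 had a p under 0.05, beside 15%, 14.6% and 19.4% of all genes, each at its brightest probe set. With so few calls over the whole table, 0 of 10 is close to the background and does not show that the genes were unchanged. The differences ran from -0.44 to 0.67, from -0.97 to 0.23 and from -0.67 to 0.3.

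The 8 probe sets of the antagonists Mxi1, Mxd4 and Mnt all lay below 0 between SV5 NN4 and SV5, with a median of -0.34, where the median of all probe sets was 0.01. Of the 10 network probe sets 7 were below 0 in 3 of 3 pairs, and all 7 belonged to these antagonists, while 19.6% of all probe sets showed that pattern in this direction. The 8 measure only 3 genes on the same arrays, with 4 probe sets for Mxd4, so they are not separate evidence. Mxi1 1425732_a_at differed by only -0.03, and Mnt 1418193_at, at -0.16, lay within or just above the bacterial controls. All 8 stayed below 0 after median centring and after quantile normalization. Without SV5 replicate 2 or without SV5 NN4 replicate 2, 7 of 8 did. Between SV5 and NIH 3T3 5 of 8 were above 0, or 7 of 8 after quantile normalization, so the directions there were mixed. None of these differences was called.

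**Figure D3:**
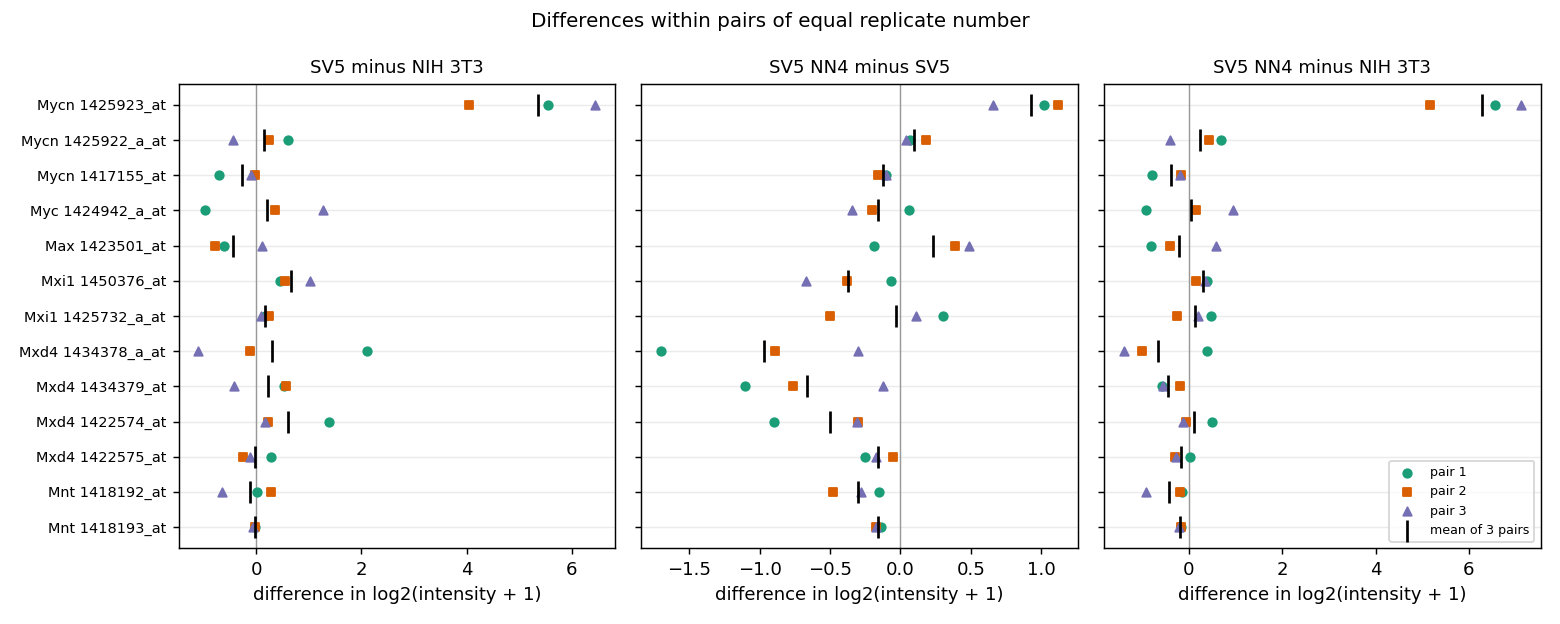
Differences within pairs of equal replicate number for the 13 probe sets, in log2(intensity + 1), in the 3 comparisons, with a symbol per pair and a black bar at the mean. The horizontal ranges differ between panels. Mycn 1425923_at stands at 5.35, 0.93 and 6.28, all means of the other genes lie between -0.97 and 0.67, and the Mxd4 and Mnt points of the middle panel are all below 0.

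Genes next to Mycn were examined because Mycn differed so much. The neighbours were the 5 measured genes on each side in the order of the RefSeq gene table, each at its brightest probe set. The nearest was Ddx1, at 277 kb, and the others lay 1053 to 3712 kb from Mycn. Ddx1 is an RNA helicase gene known to be amplified together with MYCN in human neuroblastoma. It read 8.66, 7.75 and 9.63 in NIH 3T3, 10.43, 8.72 and 10.11 in SV5, and 10.55, 8.76 and 10.19 in SV5 NN4. It was above NIH 3T3 in every pair of both clones, though the lines overlapped.

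The Ddx1 difference was 1.07 (SE 0.26, adjusted p = 0.16) for SV5 and 1.15 (SE 0.26, adjusted p = 0.08) for SV5 NN4, each against NIH 3T3. It did not pass the test. Left-out arrays moved the second comparison across the threshold, to 0.79 with adjusted p = 0.037 without NIH 3T3 replicate 1 and to 1.45 with adjusted p = 0.049 without replicate 3. The 1.07 of Ddx1 is a 2.1-fold difference, beside 40.8-fold for Mycn.

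The other neighbours showed no shared step. Between SV5 and NIH 3T3 the 10 neighbours ran from -0.36 to 1.07 with a median of 0.12. Limma called 0 of them, where the call rate over genes was 0.0484%. An unadjusted p under 0.05 was seen for 4 of the 10, beside 15% of all genes. Those 4 were Ddx1, Rdh14 (a retinol dehydrogenase, 0.72, but -0.05 at its second probe set), Trib2 (a Tribbles pseudokinase, 1.03) and Ntsr2 (a neurotensin receptor, -0.36). Trib2 was called without NIH 3T3 replicate 1, at 1.43 with adjusted p = 0.049, and its second probe set differed by -0.11. Smc6, a subunit of a DNA repair complex, differed by 0.25, and Tubb2a-ps2, Vsnl1, Msgn1, Lratd1 and Lpin1 by -0.33 to 0.15. Tubb2a-ps2 is a pseudogene of a tubulin family, so its signal may be shared. DNA copy number was not measured.

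**Figure D4:**
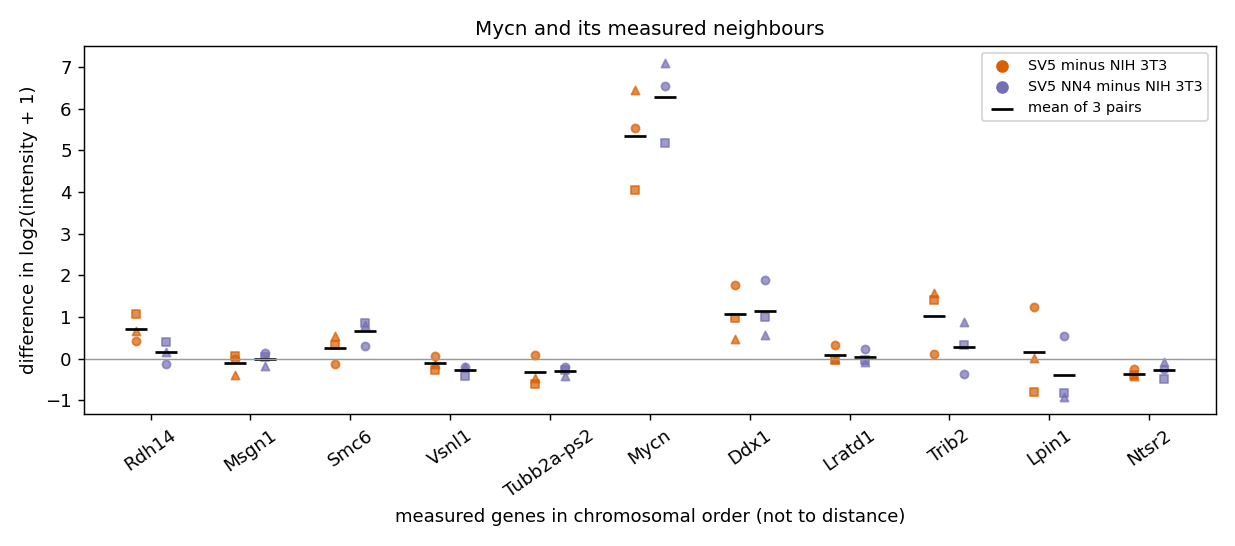
Mycn (at 1425923_at) and the 5 measured genes on each side of it in chromosomal order, not to distance, with the difference in log2(intensity + 1) from NIH 3T3 for SV5 and SV5 NN4, a symbol per pair and a black bar at the mean. Mycn stands at 5.35 and 6.28, Ddx1 beside it at 1.07 and 1.15, and the 10 neighbours lie between -0.4 and 1.15.

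Further genes of the network and its surroundings were taken from 4 lists of 90 genes, of which 80 were measured, each at its brightest probe set. The other network genes are Mycl, Mxd1, Mxd3, Mlx, Mlxip, Mlxipl and Mga, which encode L-Myc, other Mxd repressors, and relatives of Max and their partners. Of 7 measured, 0 were called by limma in any comparison, and 0, 1 and 0 had an unadjusted p under 0.05 in the order of the comparisons above. Such a p was found for 15%, 14.6% and 19.4% of all genes. The medians of the 7 were -0.07, 0.01 and 0.06, beside -0.03, 0.01 and -0.03 over all genes. The widest differences were those of Mxd3, which is linked to dividing cells. It read 8.59, 8.49 and 8.45 in NIH 3T3, 8.49, 8.17 and 7.48 in SV5, and 8.43, 8.94 and 8.49 in SV5 NN4. SV5 differed by -0.46 (adjusted p = 0.4) from NIH 3T3, and SV5 NN4 by 0.57 (adjusted p = 0.33) from SV5.

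Partners and regulators of Myc proteins gave a few calls. Of 20 measured, 0 were called between SV5 and NIH 3T3, 1 between SV5 NN4 and SV5, and 3 between SV5 NN4 and NIH 3T3. All calls were higher. Over all genes 0.0484%, 1.05% and 1.96% were called. The unadjusted p fell below 0.05 for 5, 4 and 8 of the 20, where the shares of all genes were 15%, 14.6% and 19.4%. Of these, 4, 4 and 8 were higher, beside 9.07%, 7.32% and 11.3% of all genes in that direction. List medians were 0.11, 0.21 and 0.32, beside -0.03, 0.01 and -0.03 over all genes. After quantile normalization they were 0.02, 0.19 and 0.23, with 11, 16 and 16 of the 20 above 0.

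Aurka, a mitotic kinase known to bind N-Myc and shield it from breakdown, read 6.49, 5.66 and 6.78 in NIH 3T3, 6.49, 5.92 and 6.78 in SV5, and 7.74, 7.12 and 8.51 in SV5 NN4. All SV5 NN4 arrays were above all others. Aurka rose by 1.39 (SE 0.15, adjusted p = 0.014 in limma, 3 of 3 pairs) against SV5 and by 1.48 (adjusted p = 0.011) against NIH 3T3, while SV5 differed from NIH 3T3 by 0.09. Without the replicate block the adjusted p was 0.73 and 0.65. Leaving out any 1 of the 6 arrays of the clones ended the call against SV5, at differences from 1.25 to 1.48 (highest adjusted p = 0.11), and the call against NIH 3T3 ended without NIH 3T3 replicate 2 or SV5 NN4 replicate 2 or 3 (highest adjusted p = 0.086).

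Huwe1, a ubiquitin ligase that acts on Myc proteins, and Ruvbl2, an ATPase that works with them on chromatin, were called between SV5 NN4 and NIH 3T3. Ruvbl2 read 8.57, 7.96 and 8.1 in NIH 3T3, 9.17, 8.92 and 8.65 in SV5, and 9.5, 9.15 and 9.14 in SV5 NN4. Each clone was above all NIH 3T3 arrays. Ruvbl2 rose by 1.05 (SE 0.13, adjusted p = 0.02 in limma, 0.38 without the replicate block), and SV5 was 0.71 above NIH 3T3 without passing (adjusted p = 0.12).

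Huwe1 read 7.25, 7.29 and 8.41 in NIH 3T3 and 8.85, 8.22 and 9.37 in SV5 NN4, which overlapped. It rose by 1.16 (SE 0.17, adjusted p = 0.03 in limma, 0.91 without the replicate block) at this probe set, but its other 2 probe sets differed by 0.01 and 0.03. Both calls depended on single arrays. That of Ruvbl2 was lost without NIH 3T3 replicate 2 or any SV5 NN4 array (adjusted p up to 0.16). That of Huwe1 ended without NIH 3T3 replicate 2 or any 1 of the 6 clone arrays (highest adjusted p = 0.18). The widest difference that did not pass was that of Hdac2, a histone deacetylase of the repressor complexes, at -0.94 (SE 0.51, adjusted p = 0.54) against SV5 and -1.06 (adjusted p = 0.34) against NIH 3T3.

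Genes that Myc proteins are known to activate were followed next. Of 43 measured, limma called 0 in SV5 against NIH 3T3, where 0.0484% of all genes were called, so 0 of 43 is no more than the background gives. At an unadjusted p under 0.05 there were 6 of 43, of which 3 were higher and 3 lower, beside 15% of all genes. Their median was 0.05 with 24 of 43 above 0, or -0.02 with 21 of 43 after quantile normalization, beside -0.03 over all genes. Ncl, the nucleolar protein nucleolin, differed by 0.95 (SE 0.44, adjusted p = 0.39), Tfam, which maintains mitochondrial DNA, by 0.7 (adjusted p = 0.32), and Nolc1, a nucleolar phosphoprotein, by -0.61 (adjusted p = 0.41).

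Between SV5 NN4 and SV5, 1 of the 43 was called, higher, beside 1.05% of all genes in either direction. Without adjustment 17 had a p under 0.05, all higher, beside 7.32% of all genes in that direction. The median was 0.3 with 33 of 43 above 0, beside 0.01 over all genes. In 3 of 3 pairs 24 of 43 were above 0, beside 20.9% of all probe sets, a share over probe sets and not genes. The 43 were bright, with medians of their line means of 8.92, 8.87 and 9.06, beside 5.9 for all values. No share over all genes given here was matched for intensity. Shmt2, the mitochondrial serine hydroxymethyltransferase, read 9.59, 9.59 and 9.39 in NIH 3T3, 9.23, 8.69 and 9.02 in SV5, and 10.07, 10.19 and 10.49 in SV5 NN4. All 3 lines stood apart, with SV5 lowest. Shmt2 rose by 1.27 (SE 0.18, adjusted p = 0.034 in limma, 0.13 without the replicate block) against SV5. Its other 3 probe sets were 0.47 to 0.77 above SV5 and did not pass, and the call ended without NIH 3T3 replicate 2 or any 1 of the 6 clone arrays (highest adjusted p = 0.24).

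Others of these genes came close to the threshold in that comparison. Nop56, a core protein of the snoRNPs that modify ribosomal RNA, was 1 above SV5 (SE 0.18, adjusted p = 0.065), and Pa2g4, a growth-linked RNA-binding protein, 0.87 (SE 0.16, adjusted p = 0.064), each without overlap of the lines. Tfrc, the transferrin receptor, was 1.16 above SV5 with a wide error (SE 0.71, adjusted p = 0.63). With only these lines in the fit, 10 of the 43 were called, all higher, while the share called over all genes was also larger, at 7.83% in place of 1.05%, and 3.7% were called higher.

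Between SV5 NN4 and NIH 3T3, 1 of the 43 was called, higher, beside 1.96% of all genes in either direction. Without adjustment 14 had a p under 0.05, all higher, beside 11.3% of all genes in that direction. The median was 0.35 with 39 above 0, beside -0.03 over all genes. Gart, an enzyme of purine synthesis, read 6.32, 6.46 and 8.34 in NIH 3T3, 6.64, 7.08 and 8.3 in SV5, and 7.43, 7.6 and 9.01 in SV5 NN4. The lines overlapped because replicate 3 was bright in each. Gart rose by 0.98 (SE 0.15, adjusted p = 0.038 in limma, 1 without the replicate block), and its other 2 probe sets were 0.26 and 0.49 higher without passing. The call ended without NIH 3T3 replicate 2 or any 1 of the 6 clone arrays (highest adjusted p = 0.2). Slc7a5, an amino acid transporter subunit, was 1.17 above NIH 3T3 (SE 0.27, adjusted p = 0.086).

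The fibroblast markers lay lower in SV5 NN4. Against SV5 8 of 9 lay below 0 with a median of -1.05, and 3 were called lower, beside a median of 0.01 and 1.05% called over all genes. Against NIH 3T3 the median was -0.47, and 2 were called lower, beside -0.03 and 1.96%. Their part in the other readings was not tested.

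Of the 43 activated genes 37 had a promoter in the table, and 10 of these, or 27%, held CACGTG in the 250 bases before a start, beside 1854 of 27025 genes in all, or 6.86%. The list was drawn up from known Myc targets, so its share is a description. Ldha, Cdk4, Ran and Nme1 were among the 10, while the windows of Shmt2 and Gart had none of these letters. The 10 had median differences of 0.24, 0.33 and 0.24 in the 3 comparisons, and the 27 without a match -0.05, 0.29 and 0.35.

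Genes that Myc proteins are known to repress gave 0 calls of 10 in limma in each comparison, beside 0.0484%, 1.05% and 1.96% of all genes. The unadjusted p fell below 0.05 for 1, 2 and 2 of the 10, where the shares of all genes were 15%, 14.6% and 19.4%. Counts this small are close to the background and show neither a change nor its absence. The list medians were -0.06, -0.08 and -0.34, beside -0.03, 0.01 and -0.03 over all genes. Cdkn1a, the cell cycle inhibitor p21, was 1.11 above NIH 3T3 in SV5 NN4 (SE 0.25, adjusted p = 0.085) with no overlap of the lines. Pdgfrb, a PDGF receptor, differed by -0.79 in that comparison (adjusted p = 0.08). It is also among the fibroblast markers above, at the same probe set, so the 2 lists share this reading. Gas1, a growth arrest protein, differed by -0.93 (SE 0.35, adjusted p = 0.31) between SV5 NN4 and SV5, and Gadd45a, a stress gene, by -0.73 (adjusted p = 0.34) between SV5 and NIH 3T3.

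**Figure D5:**
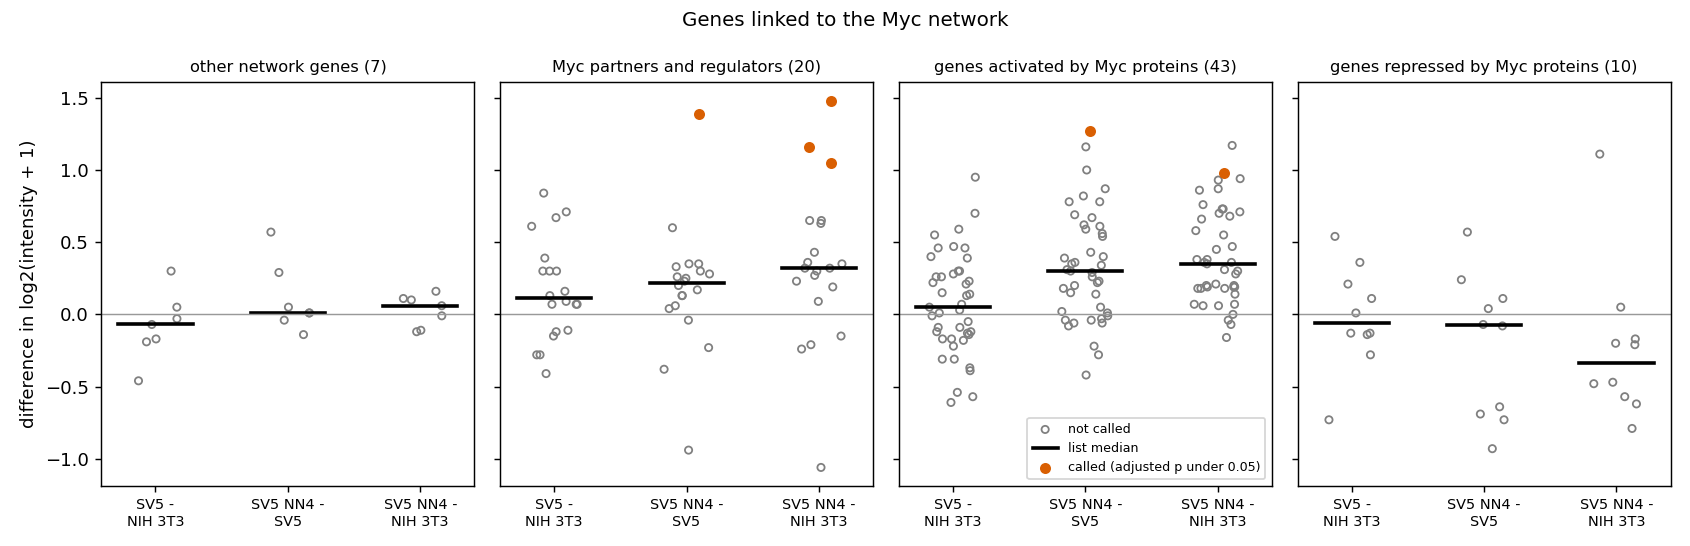
Differences in log2(intensity + 1) for the 80 measured genes of the 4 lists, 1 point per gene, in the 3 comparisons, with called genes filled and a black line at each list median. The activated genes have medians of 0.05, 0.3 and 0.35, and the few called points lie in the comparisons of SV5 NN4.

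The genes whose pattern over the 9 arrays was most like that of Mycn were picked by correlation. Each value had the mean of its replicate number subtracted, and 901 probe sets were compared whose line means spanned at least 1 log2 unit and whose highest line mean reached the median of all values, 5.9. The r values describe 9 arrays of 3 lines and mostly reflect the step from NIH 3T3 to both clones. The highest were Sec23b, a COPII coat subunit (r = 0.984), Alox5ap, which assists 5-lipoxygenase (0.974), an array control probe set for the glycolytic enzyme Gapdh (0.97), and Gatad1, a zinc finger protein (0.96). Bsg, a chaperone of lactate transporters (0.959), Cfap36 (0.956), Cox8a, a cytochrome c oxidase subunit (0.952), and Huwe1 (0.95) followed.

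These 8 were 0.82 to 1.57 above NIH 3T3 in SV5 and 1 to 1.57 in SV5 NN4, far less than Mycn. Sec23b, for example, read 8.95, 7.98 and 8.73 in NIH 3T3, 9.54, 8.77 and 9.8 in SV5, and 9.87, 8.95 and 9.84 in SV5 NN4. Other probe sets of these genes did not all follow, with r of -0.28 for Gatad1, 0.15 and 0.33 for Huwe1 and 0.95 and -0.59 for Cox8a. The other Gapdh control probe sets had r of 0.94 at the 3′ end and 0.83 at the 5′ end. Between SV5 and NIH 3T3 Gapdh differed by 0.62 at the 3′ end, 1.57 in the middle and 1.62 at the 5′ end, so its difference varied along the transcript, as in the ratios given above, and the part of RNA integrity in its likeness to Mycn was not tested. The lowest r belonged to Gpc4, a cell surface glypican (-0.978), Tuba4a, an alpha-tubulin (-0.968), Enpp3, an ectoenzyme that cleaves nucleotides (-0.951), and Cask, a membrane scaffold kinase (-0.941). At their other probe sets r was weaker, at -0.88 and -0.47 for Tuba4a, -0.79 to -0.19 for Enpp3, and -0.68 and -0.49 for Cask. Gpc4 read 9.08, 10.32 and 10.66 in NIH 3T3, 7.22, 9.21 and 8.42 in SV5, and 7.52, 8.86 and 8.58 in SV5 NN4. In every pair it was lower in both clones than in NIH 3T3.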

How the data were processed

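The deposited values are probe set intensities on a linear scale, made by the authors with RMA per the submitters' processing notes, with settings not given in the sources used here. RMA commonly includes quantile normalization, but upper quartiles ran from 165 to 240 here, so the arrays do not share 1 distribution. Values were used as log2(intensity + 1), which slightly understates differences of dim probe sets. Groups and replicate numbers came from the sample titles. The fit was limma 3.58.1 (R 4.3.3) on all 9 arrays, with a mean for each line and a block for replicate number, and p-values were adjusted by Benjamini-Hochberg over 22690 probe sets. The script was tested on simulated data. Called means an adjusted p under 0.05.

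The pairing was part of how the topic was set, and the labels do not say what equal replicate numbers share. After subtraction of line means, the 9 pairs of equal-numbered arrays correlated at r of 0.26 to 0.84, and the 18 other pairs from different lines at -0.73 to 0.11, across probe sets, which are not independent. The subtraction makes the deviations within a line cancel out. Positive r at equal numbers therefore pulls the other pairs towards negative r, so the 18 are not separate evidence. Members, lists and the paired design were chosen with earlier results of these data known.

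In the platform annotation 20393 probe sets had 1 gene symbol, 691 several and 1606 none. A listed gene was its brightest probe set. Named were all network probe sets, up to 3 called genes per list, direction and comparison, up to 2 uncalled genes with the widest differences, 5 neighbours per side, and the 8 genes most like and 4 least like Mycn. Genes named beyond this rule (the other neighbours apart) were chosen after their values were seen. The alternatives were no block, a random block, only the lines compared, a pseudocount of 16, median centring, quantile normalization, an intensity trend, brighter probe sets only, and each array left out. Promoters came from RefSeq on GRCm38.p6.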

Additional observations from a re-analysis of the deposited data

How the results depend on the processing

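The Mycn difference at its brightest probe set moved by less than the spread between pairs under each alternative, except for SV5 NN4 against SV5, where it was 0.56 without SV5 replicate 2 and 1.27 without SV5 replicate 3. With single arrays left out it was 4.87 to 5.95 for SV5 against NIH 3T3, 0.56 to 1.27 for SV5 NN4 against SV5 and 5.8 to 6.88 for SV5 NN4 against NIH 3T3. The count of called Myc, Max, Mxi1, Mxd4 and Mnt probe sets was 0 in all comparisons and alternatives, from 0 to 0 with arrays left out. Counts over the whole table moved far more. For SV5 against NIH 3T3 the 14 calls became 1 without the replicate block, 3 with a random block, 6 with an intensity trend, 0 with only these lines, a pseudocount of 16, median centring or quantile normalization, and 0 to 49 with arrays left out, while the count for listed genes stayed at 0. For SV5 NN4 against SV5 the 196 calls became 19 without the replicate block, 1504 with only these lines and 14 to 950 with arrays left out, and the 2 called listed genes became 0, 13 and 0 to 8. For SV5 NN4 against NIH 3T3 the 375 calls became 18 without the replicate block, 18 with only these lines and 13 to 1239 with arrays left out, and the 4 called listed genes became 0, 0 and 0 to 9. The cause of these shifts was not tested. Rdh14 and Trib2 were called lower in SV5 NN4 than in SV5 with only these lines (-0.58 and -0.76), and Smc6 higher than in NIH 3T3 without NIH 3T3 replicate 1 (0.84). The call of Gart was also lost with a random block and an intensity trend, and those of Gart, Aurka, Ruvbl2 and Huwe1 against NIH 3T3 with only these lines. With 3 arrays per line, and Max, Mycl and some Mycn and Mnt probe sets near the bacterial controls, small differences were not detectable.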
